A study of Mus musculus with 24 samples.

Results

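The genes described here build cholesterol and fatty acids or control that synthesis. They are 32 genes chosen by name, and all 32 had a row among the 15736 genes of the deposited count table. The sterol arm has 18 genes, 7 for the mevalonate steps and 11 for the steps from squalene to cholesterol. Another 8 genes form the fatty acid arm, and the last 6 are sterol regulators and a sterol carrier. Stranded poly(A) RNA was sequenced from dissected epithelium of the otocyst of mouse embryos, which later becomes the inner ear. Embryos labelled con were Rosa26rtTA/+ and carried only rtTA, an activator that works in the presence of doxycycline. Embryos labelled R2b were Rosa26rtTA/+;Tg(tetO-s(dn)Fgfr2b)/+ and could also make, on doxycycline, a secreted, dominant-negative FGFR2b fragment that captures FGF ligands outside the cell. Mothers were injected with doxycycline at 1.5 mg/kg and then fed chow with 200 mg/kg, so con embryos were exposed to the drug as well. Exposure ran for 12 hours from E9.75 (E9.75+12h) or for 24 hours from E9.25 (E9.25+24h), both ending at E10.25, or for 24 hours from E10.25 (E10.25+24h), ending at E11.25. Because rtTA is made from the broadly active Rosa26 locus, the transgene is not restricted to the otocyst. Each litter gave 1 pool of con and 1 pool of R2b otocysts, and 22 libraries were analysed, from 3 litters for the 12 hour exposure and 4 for each of the others. The comparison asks whether blocking these FGF signals changed the lipid synthesis genes, and whether the sterol and fatty acid arms did the same.

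Cholesterol is made from acetyl-CoA through mevalonate, farnesyl diphosphate, squalene and lanosterol, and fatty acids are made from the same acetyl-CoA by carboxylation, chain building, elongation and desaturation. The enzymes are controlled together by the SREBP transcription factors, of which SREBP-2 (gene Srebf2) acts mainly on sterol genes and SREBP-1 (Srebf1) mainly on fatty acid genes. When membrane sterol is low, SCAP escorts the SREBP precursors from the endoplasmic reticulum to the Golgi for cleavage, and when sterol is high, INSIG proteins hold them back.

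Library totals were 18.68 to 28.24 M counts. Levels are given as CPM (counts per M counts of the library) after trimmed mean of M-values (TMM) scaling. The transgene is read through Fgfr2 and Ighg1, whose sequences it contains, and both separated con from R2b at the first 2 exposures, where the log2 fold change of Fgfr2 was 2.89 (E9.75+12h) and 3.47 (E9.25+24h). At E10.25+24h litter 1 went against its labels. For litters 1 to 4 in turn, Ighg1 reached 703, 1.45, 206 and 0.758 CPM under the label con, against 56.3, 1186, 845 and 859 CPM under the label R2b. Litter 1 was therefore higher in the library labelled con, and litter 3 had transgene reads in both. In the deposited table the column of the con library of litter 1 also stands among the R2b columns, and that of its R2b library among the con columns. Every value of this exposure as labelled carries that doubt, and a fit with the labels exchanged was not made, since the labels alone set the groups. Results of that exposure are given for the libraries as labelled, with and without litter 1. All 8 otic epithelium markers were tested at each exposure and none was below 1 CPM in every library of a group, with summed levels from 1926 to 7381 CPM. The 3 exposures came from 3 sequencing requests, and a level set between exposures cannot be told apart from the request. In pooled tissue, fewer cells of a type and less RNA per cell cannot be told apart.

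The control level of the members spanned a wide range when set per kb of exon. In the con pools at E9.25+24h, Scd2, a stearoyl-CoA desaturase, was highest at 381 ± 22.8 CPM per kb (SD, n = 4). Acly, which makes acetyl-CoA from citrate, followed at 121 ± 5.29 CPM per kb. Hmgcs1, the cytosolic HMG-CoA synthase, came next at 68.3 ± 10.1 CPM per kb and was the highest gene of the sterol arm. Below it, Fads2 at 48.7 ± 3.07, Fasn at 47.5 ± 3.51, Fads1 at 44.8 ± 2.39 and Acat2 at 43.1 ± 2.42 CPM per kb did not differ from their neighbours in this order by more than the spread. Most of the other sterol enzymes lay between 5.70 (Lss) and 34.4 (Cyp51) CPM per kb. Idi1 was the lowest member at 0.846 ± 0.248 CPM per kb. Reads of some members cannot be assigned with certainty, because a near-identical copy elsewhere in the annotation covers part of the transcript. Copies of at least 97% identity covered 81.6% of the longest protein-coding transcript of Fdps, 65.6% of Acat2, 64.3% of Acaca, 33.7% of Fdft1 and 22.6% of Idi1, and the values of these genes carry that uncertainty.

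After 12 hours of exposure 10 of 18 sterol arm genes were called lower in R2b otocysts, a count that fell to 0 without litter 1. At E9.75+12h, 13 of the 32 members were lower in R2b and 0 were higher, at an adjusted p (FDR, edgeR quasi-likelihood test with Benjamini-Hochberg adjustment over all genes) under 0.05. Of all 14882 genes tested, 9.78% were called lower and 10.20% higher. Beside the 10 sterol arm genes, the called members comprised 2 of the 6 regulators and carrier, and 1 of the 8 fatty acid genes. The median log2 fold change was -0.37 over the sterol arm and -0.08 over the fatty acid arm, beside 0.01 over all genes tested. The R2b libraries lay below every con library for 16 members, where 19.0% of all genes did so. The 13 calls were drops of 21.7% to 36.6%, so the fold changes were modest.

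**Figure D1:**
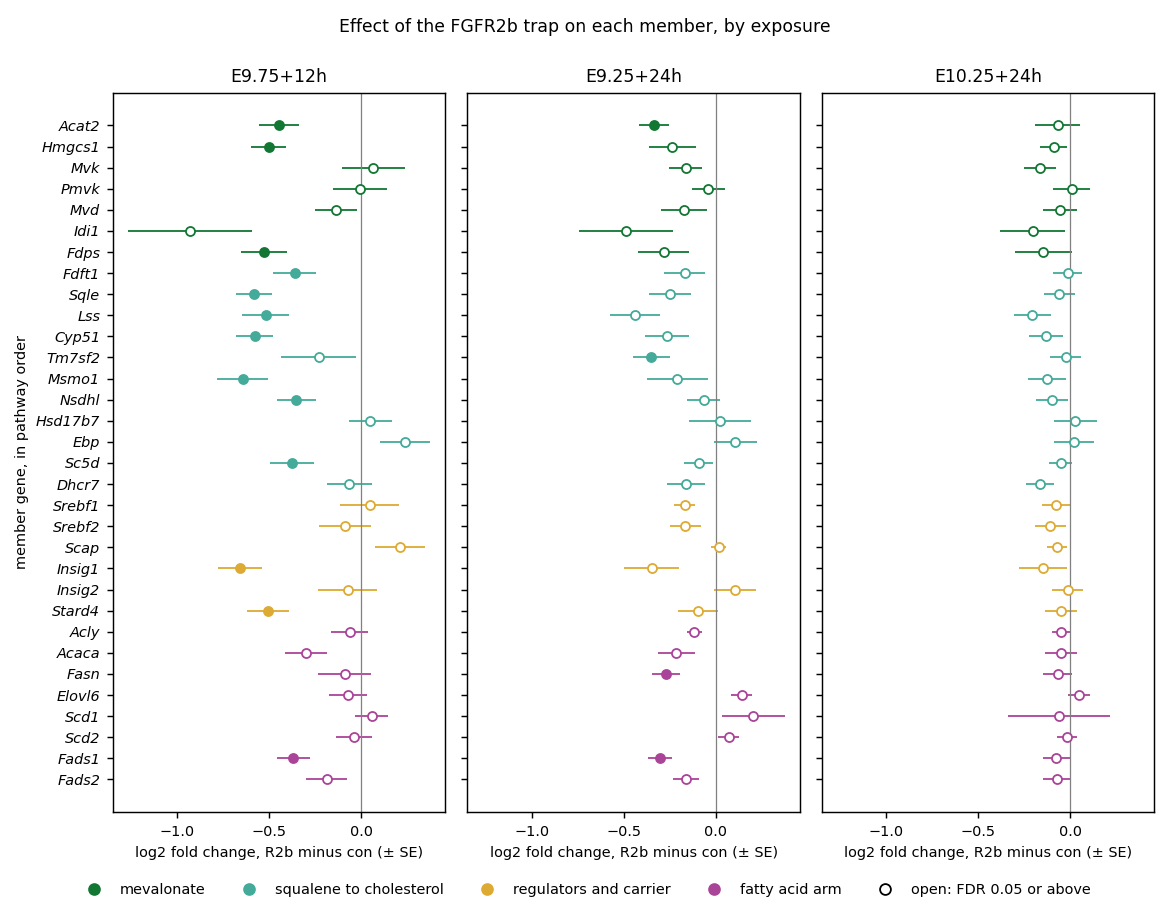
Log2 fold change of R2b against con (x axis) with its standard error for each of the 32 members (y axis, pathway order) at the 3 exposures, with colour for the role and filled symbols for FDR under 0.05. At E9.75+12h the filled symbols are 10 sterol arm genes, Insig1, Stard4 and Fads1, and at E10.25+24h no symbol is filled.

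The mevalonate steps were led by Hmgcs1, which condenses acetoacetyl-CoA with acetyl-CoA. Hmgcs1 was at 317, 287 and 264 CPM in the con pools of litters 1 to 3 and at 197, 210 and 205 CPM in the R2b pools. The groups did not overlap, and the log2 fold change was -0.50 (SE 0.10, edgeR FDR 0.00506). Acat2, the thiolase that makes acetoacetyl-CoA, was at 65.6, 64.4 and 73.9 CPM in con and 46.6, 54.1 and 48.8 CPM in R2b, again without overlap, a change of -0.45 ± 0.11 on the log2 scale (SE, edgeR FDR 0.0144). Fdps, which makes farnesyl diphosphate at the branch point between sterols and other isoprenoids, was at 36.9, 45.7 and 47.6 CPM in con and 28.0, 30.3 and 32.01 CPM in R2b, with a change of -0.53 ± 0.13 on the log2 scale (SE, edgeR FDR 0.0142). The 4 other genes of this stretch did not pass. Idi1, the isomerase that readies the isoprene unit for chain building, had the most negative estimate, -0.93 (SE 0.34), but its con mean was only 2.02 CPM and its FDR was 0.074. The kinases Mvk and Pmvk were at 0.06 and -0.01, and the decarboxylase Mvd was at -0.14.

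In the squalene to cholesterol stretch 7 of 11 genes were lower. Sqle, the squalene epoxidase and a rate-limiting step of the pathway, was at 144, 127 and 128 CPM in con and 81.9, 91.3 and 92.6 CPM in R2b, a change of -0.58 ± 0.10 on the log2 scale (SE, edgeR FDR 0.00269), the smallest FDR among the members. Cyp51, the lanosterol demethylase, was at 137, 150 and 126 CPM in con and 87.1, 100.4 and 88.7 CPM in R2b, a change of -0.58 ± 0.10 on the log2 scale (SE, edgeR FDR 0.00355). Msmo1, the methylsterol monooxygenase that acts after Cyp51, was at 90.6, 71.2 and 70.2 CPM in con and 41.7, 51.2 and 55.6 CPM in R2b, a change of -0.64 ± 0.14 on the log2 scale (SE, edgeR FDR 0.00852). None of these 3 genes overlapped between the groups, and litter 1 showed the widest gap in Sqle and Msmo1. Lss, the lanosterol synthase, was at 46.9, 43.1 and 43.0 CPM in con and 30.4, 26.6 and 35.9 CPM in R2b (log2 fold change -0.52, SE 0.13, edgeR FDR 0.0164). Nsdhl, a sterol dehydrogenase, was at 74.6, 67.5 and 76.5 CPM in con and 51.4, 61.6 and 58.1 CPM in R2b (log2 fold change -0.35, SE 0.11, edgeR FDR 0.0388). Sc5d, a sterol desaturase near the end of the route, was at 37.6, 32.6 and 35.4 CPM in con and 27.4, 29.3 and 24.5 CPM in R2b (log2 fold change -0.38, SE 0.12, edgeR FDR 0.0445). The groups were apart for these 3 genes too, with smaller gaps in Nsdhl and Sc5d. Fdft1, the squalene synthase, fell by 0.36 on the log2 scale with an edgeR FDR of 0.0479, just under the threshold.

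The rest of that stretch did not pass the test. Dhcr7, the last reductase, was at -0.07 (SE 0.12), Tm7sf2, an earlier sterol reductase, at -0.23 (SE 0.20), and Hsd17b7, a ketoreductase, at 0.05 (SE 0.12), and none was called. Ebp, the sterol isomerase, had the highest estimate of the sterol arm, 0.24 (SE 0.14, edgeR FDR 0.241). Ebp and Nsdhl are on the X chromosome, and the sex makeup of the pools was uneven. Ddx3y, a Y-linked gene, was at 34.3, 39.6 and 27.1 CPM in con and 10.8, 29.7 and 14.9 CPM in R2b, and its part in the values of these X-linked genes was not tested.

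Among the regulators, Insig1 and Stard4 were called lower, and neither SREBP gene was called. Insig1, the retention protein whose own gene is an SREBP target, was at 35.4, 35.7 and 30.4 CPM in con and 20.3, 21.2 and 22.8 CPM in R2b, a change of -0.66 ± 0.12 on the log2 scale (SE, edgeR FDR 0.00438) and the largest called drop of any member. Stard4, a sterol transfer protein, was at 40.7, 38.6 and 35.1 CPM in con and 26.4, 28.5 and 25.7 CPM in R2b, a change of -0.51 ± 0.11 on the log2 scale (SE, edgeR FDR 0.011). Both genes had groups that did not overlap. Srebf2 was at 232, 228 and 220 CPM in con and at 221, 162 and 257 CPM in R2b, with log2 fold change -0.09 (SE 0.14, edgeR FDR 0.70). Its R2b pools scattered on both sides of con, with litter 2 lowest and litter 3 highest, and Srebf1 did the same (103, 70.3 and 117 CPM in R2b against 88.9, 101 and 91.0 CPM in con). Scap was at 0.21 (SE 0.14) and Insig2, the second retention protein, at -0.07 (SE 0.16), neither called.

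In the fatty acid arm 1 of 8 genes was lower. Fads1, a desaturase of polyunsaturated fatty acids, was at 264, 250 and 261 CPM in con and 189, 202 and 209 CPM in R2b, a change of -0.37 ± 0.09 on the log2 scale (SE, edgeR FDR 0.0141) with no overlap. Its neighbour Fads2 was at -0.19 (SE 0.11, edgeR FDR 0.251). Acaca, the acetyl-CoA carboxylase, was lower in R2b in 3 of 3 litters but was not called (-0.30, SE 0.11, edgeR FDR 0.0862). The 5 remaining genes lay between -0.09 and 0.06. Fasn, the fatty acid synthase, was at 347, 439 and 411 CPM in con and 393, 294 and 437 CPM in R2b. Scd2 was at 2224, 2081 and 2203 CPM in con and 2024, 2249 and 2056 CPM in R2b. Both overlapped between the groups.

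**Figure D2:**
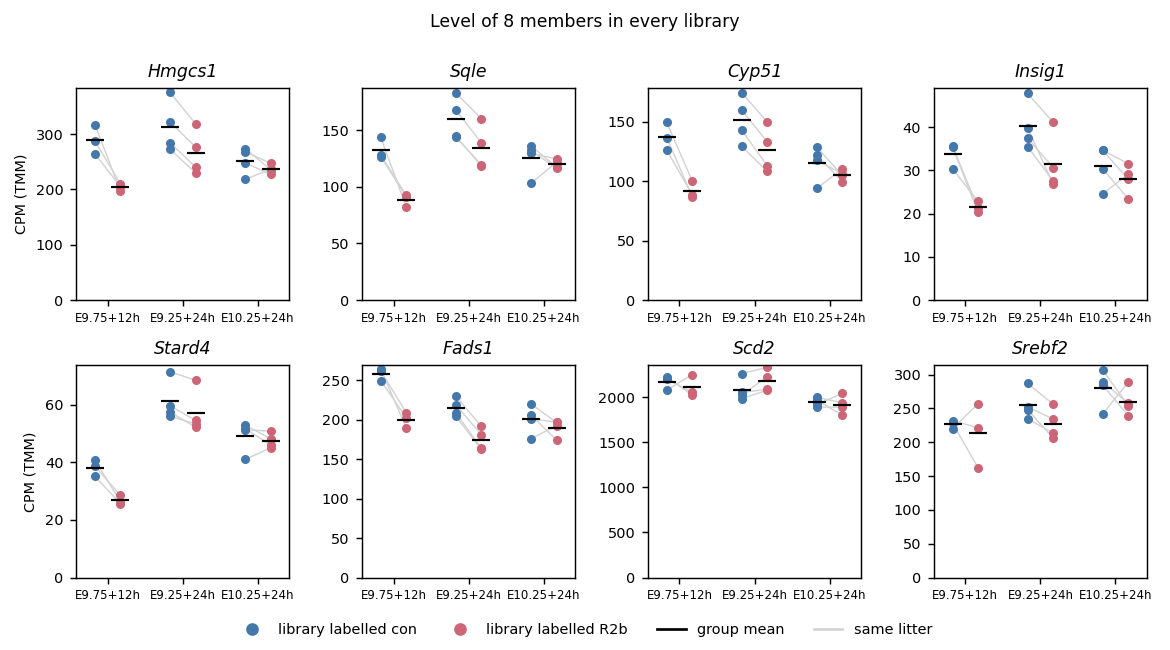
CPM after TMM scaling (y axis, from 0) of 8 members in every library at the 3 exposures (x axis), for libraries labelled con and R2b, with black bars for group means and grey lines joining the pools of a litter. At E9.75+12h the 3 R2b pools of Hmgcs1, Sqle, Cyp51, Insig1, Stard4 and Fads1 lie below the 3 con pools, whereas those of Scd2 and Srebf2 overlap them.

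The number of calls at E9.75+12h leaned on litter 1. With both its pools left out 0 members were called, and 434 of all 14878 genes tested, against 2973 genes with all litters. The sterol arm median was then -0.38. In that edgeR fit 11 members had an unadjusted p under 0.05, as had 2918 of the 14878 genes. Without the R2b pool of litter 1 alone 5 members were called (1255 of all genes), and without its con pool 7 (1618 of all genes). Without litter 3 also 7 members were called (1769 of all genes). With the litter as a block in the model 10 were called lower, beside 6.13% of all genes. Nsdhl (edgeR FDR 0.0975), Sc5d (0.109) and Fdft1 (0.104) were no longer among them. In litter 1 mitochondrial reads were 6.69% of counts in con, the highest share of the 22 libraries, and 4% in R2b. In litters 2 and 3 they were 4.36% and 5% in con and 5.82% and 4.77% in R2b. At the other exposures the share was 1.53% to 2.85%. Its part in the result was not tested. Other cell types were also uneven between the groups here. The 7 otic neuroblast markers in the table summed to 226 to 259 CPM in con and 336 to 391 CPM in R2b, with Neurog1, Neurod1 and Tubb3 called higher. The 8 blood markers summed to 20.1 to 764 CPM in con and 90.9 to 115 CPM in R2b with 0 called, and Ptprc was below 1 CPM in every library. The 10 mesenchyme markers summed to 124 to 380 CPM in con and 250 to 421 CPM in R2b, with Dcn and Lum called higher. The part of these cell types in the result was not tested.

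The promoters of 4 called genes are shown because these members fell together and because control through SREBP sites in the promoter is a textbook feature of the pathway. Each is the 250 bases before the RefSeq start on GRCm38.p6, read along the strand of the gene. The windows are chr13:119690101-119690350 (plus strand, Hmgcs1), chr5:4104698-4104947 (minus strand, Cyp51), chr5:28071162-28071411 (plus strand, Insig1) and chr8:64733579-64733828 (minus strand, Msmo1). Capitals mark matches, on either strand, of TCACNCCAC, a core of the sterol regulatory element, and of CCAAT, the box bound by NF-Y, a common partner of SREBP. On the opposite strand the latter reads ATTGG.
Hmgcs1: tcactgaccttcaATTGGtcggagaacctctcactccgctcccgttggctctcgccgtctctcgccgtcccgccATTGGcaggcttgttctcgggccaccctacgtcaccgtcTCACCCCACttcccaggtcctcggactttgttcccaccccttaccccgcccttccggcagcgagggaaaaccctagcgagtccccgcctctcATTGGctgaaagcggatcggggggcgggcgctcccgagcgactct
Cyp51: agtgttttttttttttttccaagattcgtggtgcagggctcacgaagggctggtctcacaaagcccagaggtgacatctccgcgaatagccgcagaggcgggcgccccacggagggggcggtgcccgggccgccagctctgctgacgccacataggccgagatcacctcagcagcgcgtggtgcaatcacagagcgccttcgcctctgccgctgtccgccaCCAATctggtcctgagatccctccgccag
Insig1: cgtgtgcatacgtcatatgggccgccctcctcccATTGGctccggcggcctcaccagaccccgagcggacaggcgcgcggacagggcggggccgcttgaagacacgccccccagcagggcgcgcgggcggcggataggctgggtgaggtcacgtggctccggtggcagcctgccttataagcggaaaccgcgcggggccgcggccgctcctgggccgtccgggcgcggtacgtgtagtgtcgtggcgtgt
Msmo1: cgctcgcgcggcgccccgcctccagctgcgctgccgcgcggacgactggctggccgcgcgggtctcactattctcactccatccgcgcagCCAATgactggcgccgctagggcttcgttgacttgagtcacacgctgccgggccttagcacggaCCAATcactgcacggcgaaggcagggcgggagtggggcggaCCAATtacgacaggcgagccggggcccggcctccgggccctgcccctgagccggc
An entry existed for 25 of the 32 members. TCACNCCAC occurred in 1 of the 25, Hmgcs1, 137 bases before the start, and in 1.05% of the 32851 promoters of the whole table. CCAAT occurred in 19 of the 25 members, in 14 of 15 sterol arm genes, 4 of 5 regulators and 1 of 5 fatty acid genes. It was present in 33.8% of all promoters and in 37.5% of all 27025 genes with an entry. Of the 8 members that were called lower at E9.75+12h and had an entry, 7 held it. Beside the 19 of 25 members and 14 of 15 sterol arm genes with the box, this did not set the called members apart. A match describes the letters only and is no evidence of a bound factor.

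After 24 hours of exposure to the same end stage, fewer members were called than after 12 hours without the litter in the model (4 against 13), and more with it (22 against 10). At E9.25+24h, 4 of 32 members were lower in R2b and 0 higher (edgeR FDR under 0.05), beside 6.5% of 14979 genes called lower and 9.09% called higher. The median was -0.19 over the sterol arm, -0.14 over the fatty acid arm and -0.01 over all genes tested. Fads1 was at 204, 209, 219 and 230 CPM in con and 162, 164, 181 and 192 CPM in R2b, a change of -0.30 ± 0.06 on the log2 scale (SE, edgeR FDR 0.0181). Acat2 was at 106, 110, 104 and 118 CPM in con and 81.5, 82.5, 81.1 and 103 CPM in R2b, a change of -0.34 ± 0.08 on the log2 scale (SE, edgeR FDR 0.0288). These 2 genes were called lower in both exposures that ended at E10.25, and neither had overlapping groups in either. At E9.25+24h the R2b libraries lay below every con library for 6 members, and for 1529 of all 14979 genes tested. At E9.75+12h that share of all genes was 19.0%. How many of all genes were called lower in both exposures was not counted. Fasn was at 483, 491, 556 and 551 CPM in con and 422, 386, 436 and 482 CPM in R2b, a change of -0.27 ± 0.08 on the log2 scale (SE, edgeR FDR 0.0438). Tm7sf2 was at 32.6, 34.2, 41.2 and 34.9 CPM in con and 24.3, 27.9, 31.5 and 28.3 CPM in R2b, a change of -0.35 ± 0.10 on the log2 scale (SE, edgeR FDR 0.0469). For Fasn the highest R2b pool was just below the lowest con pool (482 against 483 CPM). The same held for Acat2 (103 against 104 CPM) and, less closely, for Tm7sf2 (31.5 against 32.6 CPM).

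At this exposure the pools of a litter rose and fell together, and the test without litters in the model left that shared part in the error. Hmgcs1 was at 285, 273, 322 and 375 CPM in con and at 240, 230, 277 and 319 CPM in R2b. The con and R2b ranges overlapped, yet R2b was lower in 4 of 4 litters, and the log2 fold change of -0.24 had an edgeR FDR of 0.23 without the block and 0.000167 with it. Cyp51 (129, 143, 160 and 175 CPM in con, 108, 113, 133 and 150 CPM in R2b) showed the same, with an FDR of 0.166 without and 0.000184 with the block. With the litter as a block, 20 members were called lower and 2 higher, where 20.1% of all genes were lower and 20.5% higher. The 20 were 12 sterol arm genes, 5 fatty acid genes (Acaca, Acly, Fads1, Fads2 and Fasn) and the regulators Insig1, Srebf1 and Srebf2. Insig1 was at 35.5, 39.9, 37.5 and 47.8 CPM in con and 27.6, 26.9, 30.6 and 41.2 CPM in R2b, with a log2 fold change of -0.35 and an FDR of 0.141 without and 0.00143 with the block. The 2 higher members were Scd1 (log2 fold change 0.20, block FDR 0.00382) and Elovl6 (0.14, block FDR 0.0151), which place a double bond in and lengthen saturated chains. Both were higher in R2b in 4 of 4 litters. Stard4, called lower at E9.75+12h, was at -0.10 (SE 0.11) and was not called with the block (FDR 0.0702).

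The 4 calls without the block were fragile. Leaving out litter 1, 2 or 3, or the R2b pool of litter 1 or 2, brought them to 0, and leaving out litter 4 gave 5 (Acat2, Fads1, Fasn, Insig1 and Lss), as did leaving out its R2b pool. Without the con pool of litter 1, 2 or 4 a single member, Fads1, was called, and without the con or R2b pool of litter 3 there were 2. Over all genes the calls without the block fell too. The genes called lower were 973 in the full fit, 68 without litter 1, 101 without litter 2 and 388 without litter 3, of 14972 to 15060 tested. With the block, leaving out each litter in turn gave 14 to 19 lower members, beside 1953 to 2973 lower genes in all. Summed blood markers ran from 9.55 to 1597 CPM in con and from 12.1 to 625 CPM in R2b, with 0 called, and summed mesenchyme markers from 90.4 to 1290 and from 102 to 1208 CPM, also with 0 called. With the litter block, markers of other cells were called as well: 2 of 10 mesenchyme markers higher and 1 lower, 1 of 6 tested blood markers lower, 3 of 8 endothelium markers lower (8 of 8 with negative estimates), 1 of 4 hindbrain markers higher, and 1 of 7 otic neuroblast markers higher and 2 lower. Of the 8 otic epithelium markers, 4 were higher and 2 lower in that fit. It called 20.1% of all genes lower and 20.5% higher. Apart from the endothelium and otic epithelium counts, the marker counts lay near those shares. The part of these cells in the result was not tested.

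At E10.25+24h no member passed the test, and neither did any other gene: 0.0% of 15203 genes were called by edgeR. None of the 32 members had an unadjusted p under 0.05 in edgeR and 1 had in DESeq2, which also called 0. The sterol arm median was -0.08 and the fatty acid arm median -0.06. The smallest p belonged to Dhcr7, which was at 56.0, 70.8, 63.0 and 62.0 CPM under the label con and 55.6, 59.6, 55.3 and 53.9 CPM under the label R2b (log2 fold change -0.16, SE 0.07, edgeR FDR 1). Next came Lss, at 39.6, 46.8, 50.3 and 51.8 CPM and 43.8, 35.7, 39.7 and 43.8 CPM (-0.21, SE 0.10, edgeR FDR 1). For Lss litter 1 ran opposite to the other litters, as it did for the transgene. The same held for Cyp51, at 94.0, 122, 118 and 129 CPM in con and 111, 99.6, 106 and 105 CPM in R2b (-0.13, SE 0.09, edgeR FDR 1). Mvk was at 31.1, 32.6, 35.9 and 36.9 CPM and 31.3, 27.4, 33.6 and 29.3 CPM (-0.17, SE 0.09, edgeR FDR 1).

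With litter 1 left out, the same genes had larger estimates. The sterol arm median was -0.15 and the fatty acid arm median -0.09, with 10 members at an unadjusted p under 0.05 and 0 called by edgeR. Of all 15195 genes tested, 2430 had an unadjusted p under 0.05 in that fit and 0 were called. Cyp51 was at -0.24 (edgeR FDR 0.129), Lss at -0.31 (0.178), Mvk at -0.22 (0.321) and Dhcr7 at -0.21 (0.245). With the litter as a block and litter 1 left out, 2 members were called lower, Lss (-0.32, edgeR FDR 0.0424) and Srebf2 (-0.22, edgeR FDR 0.0497), where 1.25% of all 15195 genes tested were called lower. Summed blood markers in this exposure ran from 165 to 666 CPM in con and from 263 to 5012 CPM in R2b, and their part was not tested.

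Litter by litter, the sterol arm had the lower R2b minus con median in every litter but litter 3 of E10.25+24h, leaving aside litter 1 of that exposure, whose labels the transgene reads went against. The medians of the log2 CPM difference over the 18 sterol genes were -0.47, -0.42 and -0.34 for litters 1 to 3 at E9.75+12h, and over the 8 fatty acid genes -0.10, -0.27 and -0.07. At E9.25+24h they were -0.19, -0.20, -0.18 and -0.22 for the sterol arm and -0.08, -0.15, -0.17 and -0.10 for the fatty acid arm. At E10.25+24h litter 1 had positive medians in both arms as labelled, 0.15 for the sterol and 0.08 for the fatty acid arm, and litters 2 to 4 had negative ones, -0.21, -0.05 and -0.20 for the sterol arm and -0.03, -0.06 and -0.16 for the fatty acid arm. The gap between the fitted arm medians was -0.29 at E9.75+12h, -0.05 at the second exposure and -0.02 at the last. Without litter 1 the first gap was -0.18, because the fatty acid arm median was then -0.20, and without the con pool of that litter alone these were -0.18 and -0.15. Without the con pool of litter 4 the gap at E9.25+24h was 0.04, so that its sign depended on 1 library, and without the R2b pool of that litter it was -0.13. The 2 arms thus differed in their counts of lower calls at E9.75+12h with all litters (10 of 18 and 1 of 8, beside 9.78% of all genes). With the litter block these were 7 of 18 and 1 of 8 (6.13% of all genes). Without litter 1 they were 0 in both arms (182 of 14878 genes lower). At E9.25+24h 2 of 18 and 2 of 8 were lower, beside 6.5% of all genes. With the litter block 12 of 18 and 5 of 8 were lower there, and 0 and 2 were higher. That fit called 20.1% of all genes lower and 20.5% higher. The difference between the arms has no test here.

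**Figure D3:**
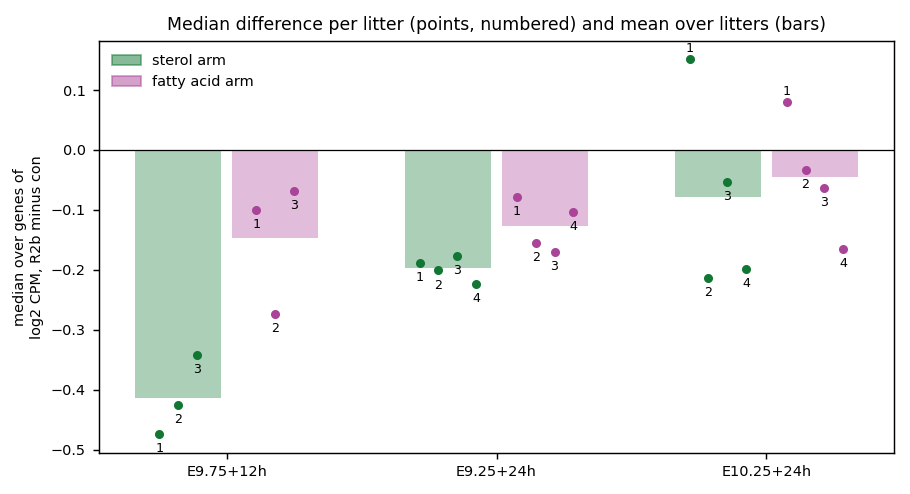
Median over the genes of an arm of the log2 CPM difference, R2b minus con (y axis), for each litter (numbered points) and as the mean over litters (bars), at the 3 exposures (x axis). Sterol arm points lie between -0.47 and -0.34 at E9.75+12h, and litter 1 at E10.25+24h, whose transgene reads go against its labels, is the only litter above 0 in either arm as labelled.

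Whether the effect differed between exposures was tested directly, and no difference was called. For E9.25+24h minus E9.75+12h, 0 of 32 members and 0.0% of 15688 genes were called by edgeR, and 5 members and 12.2% of all genes had an unadjusted p under 0.05. The member differences had a median of 0.12 (0.17 over the sterol arm), beside 0.04 over all genes, so the estimates of R2b effects were mostly less negative at E9.25+24h. Stard4 had the smallest p, with a difference of 0.43 (SE 0.15, unadjusted p 0.0124, edgeR FDR 0.302). Sc5d followed at 0.30 (SE 0.12, unadjusted p 0.0174, edgeR FDR 0.322) and Elovl6 at 0.23 (SE 0.10, unadjusted p 0.0338, edgeR FDR 0.371). Without litter 2 of E9.75+12h, 3 members were called, Sc5d with a positive difference and Scap and Srebf1 with negative ones, whose R2b pools of that litter were the lowest of their group. Of all 15718 genes tested in that fit, 805 were called with a positive and 257 with a negative difference. For E10.25+24h minus E9.25+24h, 0 of 32 members and 0.0% of 15688 genes were called, and 1 member and 8.57% of all genes had an unadjusted p under 0.05. That member was Fads1 (0.22, SE 0.10, unadjusted p 0.0407, edgeR FDR 0.556), followed by Acat2 (0.26, SE 0.15, unadjusted p 0.106, edgeR FDR 0.707) and Tm7sf2 (0.32, SE 0.19, unadjusted p 0.108, edgeR FDR 0.71). The median difference over the members was 0.08, and 0.02 without litter 1 of E10.25+24h. DESeq2 called 0 members in both contrasts. The 2 contrasts share the libraries of E9.25+24h. The unequal counts of calls between exposures are thus not shown to be a difference in effect.

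The neighbouring lists were counted in the same way. In sterol uptake, transport and efflux, 5 of 17 genes were higher and 1 lower at E9.75+12h, with a median of 0.21, where 10.20% of all genes were higher and 9.78% lower. Without litter 1 these counts were 1 and 1, where 252 of 14878 genes were higher and 182 lower, and the median was still 0.21. Lrp8, a lipoprotein receptor, was at 44.5, 48.4 and 39.2 CPM in con and 16.7, 16.7 and 20.8 CPM in R2b, a change of -1.28 ± 0.13 on the log2 scale (SE, edgeR FDR 0.000447). Abca1, the cholesterol efflux pump, was at 18.7, 14.2 and 16.5 CPM in con and 33.3, 37.3 and 33.8 CPM in R2b, a change of 1.08 ± 0.13 on the log2 scale (SE, edgeR FDR 0.000754). Both genes were far apart between the groups, in opposite directions. The other efflux pump of the list, Abcg1, was also higher (0.80, edgeR FDR 0.00421), as were Npc1, Npc2 and Lipa of the lysosome, 4 genes named after their values were seen. At E9.25+24h, where 9.09% of all genes were higher and 6.5% lower, 3 of the 17 were higher and 1 lower, again Lrp8 (-1.11, SE 0.13, edgeR FDR 0.00184), with Gramd1c (0.65, edgeR FDR 0.00769) highest in rank among the rises. Without litter 1 of this exposure the counts were 0 higher and 1 lower, where 254 of 14972 genes were higher and 68 lower. Abca1 was at 20.5, 18.4, 12.8 and 26.2 CPM in con and 35.7, 35.8, 22.2 and 32.5 CPM in R2b there, higher in 4 of 4 litters, with a log2 fold change of 0.69 and an edgeR FDR of 0.0641 without and 0.000327 with the litter block.

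Of 13 other sterol and isoprenoid enzymes, 2 were lower at E9.75+12h, and 0 were higher. Lbr, which also reduces the sterol that Tm7sf2 acts on, was at 96.8, 92.0 and 94.7 CPM in con and 53.6, 61.3 and 56.9 CPM in R2b (log2 fold change -0.72, SE 0.10, edgeR FDR 0.000959). Pdss1, which makes the side chain of ubiquinone, had a change of -0.82 ± 0.23 on the log2 scale (SE, edgeR FDR 0.0285). Lbr was lower at E9.25+24h as well (-0.37, SE 0.06, edgeR FDR 0.00741), the only gene of that list called there without the litter block, while 5 of the 13 were lower with it, beside 20.1% of all genes. Among 12 genes of SREBP maturation and degradation, 1 was called at E9.75+12h, Syvn1 (0.48, edgeR FDR 0.0182), a ubiquitin ligase of the endoplasmic reticulum. At E9.25+24h the site protease Mbtps2 was lower (-0.20, edgeR FDR 0.032) and Erlin2 higher (0.19, edgeR FDR 0.0372). Of 25 other genes of fatty acid and lipid synthesis, 2 were higher and 1 lower at E9.75+12h. Lpin1, a phosphatidate phosphatase, was at 0.72 (SE 0.11, edgeR FDR 0.00184), and Hsd17b12, a reductase of fatty acid elongation, at -0.60 (SE 0.10, edgeR FDR 0.0033). At E9.25+24h 3 were higher and 3 lower, and Lpin1 (0.50, edgeR FDR 0.00481) and Elovl1 (0.42, edgeR FDR 0.00773), an elongase of very long chains, had the smallest FDR. Of 15 fatty acid oxidation genes, 1 was higher at E9.75+12h, Cpt1c (0.96, SE 0.19, edgeR FDR 0.00588), a neuronal relative of the carnitine transferase, and 2 at E9.25+24h, Cpt1c (0.58, edgeR FDR 0.0323) and Hadh (0.15, edgeR FDR 0.0479). At E9.75+12h the counts of these 4 lists lay near the shares of all genes. Without litter 1 they came to 1 lower of the 13 sterol and isoprenoid enzymes and 0 in the others. In that fit 434 of all 14878 genes were called. The E9.25+24h counts stood beside 9.09% of all genes higher and 6.5% lower. Without litter 1 of that exposure they came to 1 lower of the 13 and 0 in the others, where 322 of 14972 genes were called. At E10.25+24h 0 genes of the 5 lists were called by edgeR, with or without litter 1. With litter 1 left out and the block, 1 of 13 sterol and isoprenoid enzymes was lower, 1 of 17 uptake and transport genes was higher and 1 lower, and 1 of 25 other lipid synthesis genes was lower, beside 1.25% of all genes lower.

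**Figure D4:**
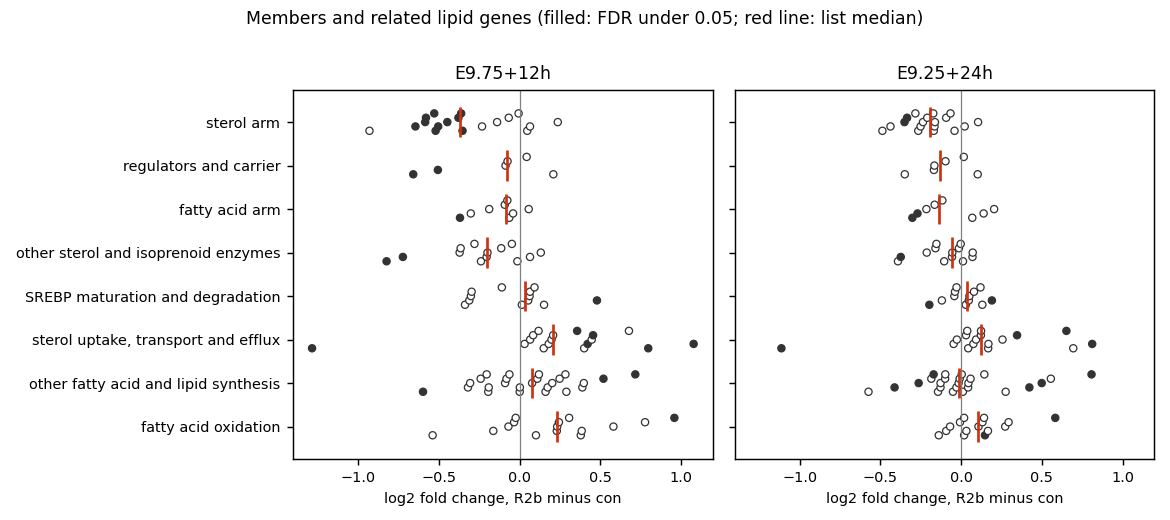
Log2 fold change of R2b against con (x axis) for each gene of the members' 3 groups and of 5 related lists (y axis), at E9.75+12h and E9.25+24h, with filled points for FDR under 0.05 and a red line at the median of a list. At E9.75+12h the sterol arm median is -0.37 and that of sterol uptake, transport and efflux is 0.21.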

How the data were processed

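Counts per gene were deposited by the authors as raw whole numbers. Per the submitters' processing notes the tools include Novoalign 2.08.03 and the build mm10. The counting tool, annotation and gene filter are not given in the sources used here. Columns were joined to samples by library number: 2 samples of E9.75+12h had no matching column and are not analysed here, and 2 columns that match no sample were not used. Symbols and positions are from GENCODE M21 (GRCm38). Of 15736 genes, 214 had no symbol.

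Each exposure was fitted alone in edgeR 4.0.16 (R 4.3.3) with filterByExpr, TMM, glmQLFit and glmQLFTest, and a gene is called at FDR under 0.05. Differences between exposures were contrasts of 6 group means in all 22 libraries. SEs come from the quasi-likelihood F statistic. Log2 CPM used a prior count of 2 and fits a prior of 0.125. On counts simulated from these libraries under the kind of model that is fitted, without a litter effect, the fit recovered the fold changes put in. That checks the code and not the calls. The con and R2b pools of a number come from the same female by the labels, so litters pair the samples. Deviations from the group mean correlated within litters, across genes, at 0.42 to 0.77 for E9.25+24h and at -0.11 to 0.39 for E10.25+24h, but at -0.26 to -0.12 for E9.75+12h. The pairing at E9.75+12h therefore rests on the labels alone. Litters are separate pregnancies, and p-values measure the spread between their pools.

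The members, lists and tests were chosen with earlier results of these data known. Values are given for up to 12 called members per exposure by FDR (else the 4 of smallest p), for up to 3 per difference, and for up to 2 called genes per other list. Alternatives were median-of-ratios size factors, other filters, the litter block, one fit of all libraries, robust dispersion, DESeq2 1.42.0 and each library or litter left out.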

Additional observations from a re-analysis of the deposited data

Results flagged for a closer look

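Among 16 groups of 4 libraries checked for a library far from the others, 1 stood out. It was Acat2 at E9.25+24h, where the R2b pool of litter 4 was at 102.8 CPM and the other R2b pools were at 81.1 to 82.5 CPM, so that the gap to the nearest pool took up 0.935 of the range of the group. The con pool of the same litter, at 118 CPM, was also the highest of its group. Chance alone flags about 1 in 20 groups.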

How the results depend on the processing

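With the litter as a block, 20 members were called lower and 2 higher at E9.25+24h, where the fit without it called 4 and 0, and DESeq2 called 7 lower. Over all genes at E9.25+24h, the block called 3015 of 14979 lower, the fit without it 973 of 14979 and DESeq2 1519 of 15736. For E9.75+12h the block called 10 lower, DESeq2 13 and one fit of all libraries 15. Over all genes these 3 fits called 913 of 14882, 1847 of 15736 and 2761 of 15688 lower. When a library or a litter was left out, with or without the block, E9.75+12h had 0 to 13 lower and 0 to 1 higher members. Its sterol arm median then lay between -0.49 and -0.34, its fatty acid arm median between -0.21 and -0.090, and the gap between them between -0.39 and -0.17. Under the same omissions E9.25+24h had 0 to 19 lower and 0 to 2 higher members, a sterol arm median of -0.28 to -0.10 and a gap of -0.13 to 0.041, and E10.25+24h had 0 to 2 lower members. Between the exposures that ended at E10.25, 0 to 3 differences were called. The causes were not tested, although every omission also leaves fewer samples. For the genes given singly, 384 of 481 recalculated values kept their direction and side of the threshold, 95 kept only the direction, 2 newly passed and 0 changed sign. The 384 include many values of genes at E10.25+24h and in the differences, which were not called at first and stayed so. All 95 belong to genes called at E9.75+12h or E9.25+24h, so the called genes kept their calls less often than the pooled count shows. Sqle, Cyp51, Insig1, Hmgcs1 and Msmo1 at E9.75+12h kept their call in 17 of 19 alternatives each and lost it in the 2 without both pools of litter 1. Over all genes, 2973 were called at E9.75+12h (267 to 4583 over the alternatives), 2335 at E9.25+24h (322 to 6161, and 6086 with the block) and 0 at E10.25+24h (0 to 614). The differences between exposures had 0 calls each, with up to 1062 for E9.25+24h minus E9.75+12h and up to 74 for the later one. Depth limits Idi1 most, whose con means were 2.02 to 2.97 CPM.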
